A study of Homo sapiens with 2 samples.

Results

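The ID genes (ID1, ID2, ID3 and ID4) and the genes of the E proteins (TCF3, TCF4 and TCF12) were examined in periostin-silenced lung fibroblasts. These 7 genes, of 21743 genes that could be named on the arrays through RefSeq accessions, were chosen from the earlier results of the same comparison, in which the ID genes had been seen to be low, so their ratios are given as a description. MRC-5 cells, which are fibroblasts of an established line from human fetal lung, were transfected with control siRNA or with periostin siRNA at 10 nM for 48 h, and the RNA of each culture was put on 1 single-colour Agilent array. No untransfected culture was analysed here, each group was 1 culture and 1 array (a single slide carried both), so no test between the conditions could be made and no p-value is given. In RNA of a whole culture, fewer cells expressing a gene and less RNA per cell cannot be told apart.

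E proteins are transcription factors of the basic helix-loop-helix (bHLH) class, which bind E-box DNA as dimers, either with each other or with a tissue-specific bHLH partner. ID proteins carry the helix-loop-helix but lack the basic, DNA-binding region, so a dimer of an ID protein with an E protein does not bind the E-box. ID genes are immediate targets of bone morphogenetic protein (BMP) signalling through SMAD proteins, are usually high in growing, undifferentiated cells and oppose differentiation and cell cycle exit. TCF4 here is the E-protein gene and not the Wnt effector TCF7L2, which is often called by the same name.

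The start sites of the genes are shown because the 4 ID genes were all lower by more than 3-fold with periostin siRNA while the E-protein genes were within 3-fold. RefSeq (GRCh38.p14) listed 1 start site for each of ID1, ID2, ID3, ID4 and TCF3, 5 for TCF12 and 10 for TCF4. The 100 bases before the start of each gene with 1 start site are printed 5′ to 3′, with the TATA box core (TATAA), the CCAAT box and the E-box (CANNTG) in capitals, whichever strand holds them. They lie at chr20:31605189-31605288 (plus strand) for ID1, chr2:8681956-8682055 (plus) for ID2, chr1:23559502-23559601 (minus) for ID3, chr6:19837270-19837369 (plus) for ID4 and chr19:1652616-1652715 (minus) for TCF3.
ID1: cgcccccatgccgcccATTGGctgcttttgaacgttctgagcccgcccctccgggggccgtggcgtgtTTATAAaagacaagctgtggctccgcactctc
ID2: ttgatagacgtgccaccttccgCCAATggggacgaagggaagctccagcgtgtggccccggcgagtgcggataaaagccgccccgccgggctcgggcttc
ID3: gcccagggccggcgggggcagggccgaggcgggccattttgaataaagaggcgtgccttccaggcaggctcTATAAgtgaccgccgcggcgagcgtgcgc
ID4: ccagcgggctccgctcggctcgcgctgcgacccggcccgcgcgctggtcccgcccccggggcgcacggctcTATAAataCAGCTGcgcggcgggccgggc
TCF3: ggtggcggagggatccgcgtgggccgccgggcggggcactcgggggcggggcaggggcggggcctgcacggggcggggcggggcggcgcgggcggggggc

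Motifs were searched on both strands from 250 bases before to 50 bases after each start. TATAA was found at ID1, ID3 and ID4, beginning 32, 29 and 29 bases before the start, and not at ID2 or TCF3, whereas 20.4% of all 35116 such windows held it. At ID1 the 6 letters in capitals hold the motif on both strands, overlapping. For TCF12, 0 of 5 windows held TATAA, and for TCF4 3 of 10 did. The SMAD box GTCT was found at all 4 ID genes, 3 times at ID1, 2 times each at ID2 and ID3 and 1 time at ID4, but it is also in 84.0% of all windows. At ID3 one GTCT overlaps TGACG, the core of the cyclic AMP element found in 24.6% of all windows, by 1 base. The GC-rich SMAD element GGCGCC, present in 19.2% of all windows, was in none of the 4 ID windows. CCAAT, in 34.6% of all windows, was found 1 time at ID1, 3 times at ID2 and 1 time at ID4. The E-box was found 1 time each at ID2 and ID4 (68.7% of all windows). The site of EGR1, an early growth response factor known to act on ID genes, was searched as GCGGGGGCG, and it was found at ID4 (5.07% of all windows). These matches describe the letters only.

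Before the ID genes, the target of the siRNA and the cell type were checked. POSTN, the periostin gene, had a signal of 2638 with control siRNA and 280 with periostin siRNA (log2 ratio -3.24 ± 0.20). The error of a log2 ratio was combined from the errors that the scanner software gave for the spot on each array. Signals are background-subtracted spot intensities scaled to a common 75th percentile of 377 over the 58717 spots of each array. All 8 fibroblast markers (COL1A1, COL1A2, COL3A1, PDGFRB, THY1, VIM, DCN and LUM) were well above background on both arrays, with a summed signal of 351191 with control siRNA and 316250 with periostin siRNA. VIM alone gave 189263 and 174022 of these sums. The log2 ratios of the 8 markers ran from -0.54 (COL1A1) to 0.83 (LUM). The summed signal was 72.1 and 195 for 4 epithelial markers, of which EPCAM went from 34.6 to 135 and CDH1 and KRT5 were below background on both arrays. It was 124 and 128 for 3 endothelial markers (PECAM1 below background on both arrays) and 26.5 and 36.3 for 3 blood cell markers (HLA-DRA below background on both). For 3 muscle markers it was 306 and 350, nearly all of it from DES, with MYOD1 above background only with periostin siRNA. The part of these differences in the results was not tested.

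All 4 ID genes gave a lower signal with periostin siRNA, and all of them were lower by more than 3-fold, the threshold of the study. The 7 genes were measured by 8 spots, each printed once per array, all of which were well above background on both arrays, without an outlier flag and not saturated. Over the 16052 genes with a ratio, 2.75% were called lower past this threshold and 3.37% higher, and no ID or E-protein gene was higher. The ID genes entered because they were low, so nothing is read from their count.

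ID1, known for its strong induction by BMP, had a signal of 22368 ± 2237 with control siRNA and 944 ± 94.4 with periostin siRNA (error of 1 spot). Its log2 ratio was -4.57 ± 0.20, a signal 23.7-fold lower. This ratio was the 8th lowest of the 16052. The median pixels of the spot, which do not depend on its brightest or dimmest part, gave -4.58 after subtraction of the local background.

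ID3, like ID1 a target of BMP signalling and often expressed together with it, had a signal of 7224 ± 722 with control siRNA and 641 ± 64.1 with periostin siRNA. The log2 ratio was -3.49 ± 0.20, which is 11.3-fold lower and the 56th lowest of all genes with a ratio. ID3 thus kept 8.87% of its control signal, and ID1 kept 4.22%.

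ID2, which besides E proteins also binds the retinoblastoma protein, was the only one of the 7 genes with 2 probes. The first probe gave 5162 ± 516 with control siRNA, and the signal after periostin silencing was 957 ± 95.7 (log2 ratio -2.43 ± 0.20). The second probe gave 2237 ± 224 and 359 ± 36.0 (log2 ratio -2.64 ± 0.20). The ratios of these probes differed by 0.21, less than the combined software error of 0.29. The difference was more than the SD measured between repeated spots of like brightness (0.06 and 0.07). The 2 separate spots gave ID2 as 5.39-fold and 6.22-fold lower.

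ID4, the member of the family with the most restricted expression, was dim on both arrays, at 63.2 ± 6.51 in the control culture and 17.3 ± 2.35 in the silenced culture. The log2 ratio was -1.87 ± 0.25, 3.66-fold lower, and it was -1.60 by the median pixels. The lowest signals well above background were 7.55 and 7.77 on the 2 arrays, so ID4 with periostin siRNA lay close to that limit. Under the normexp background correction, which adds an offset of 50 to both arrays, ID4 gave -0.75 and was no longer past 3-fold.

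**Figure D1:**
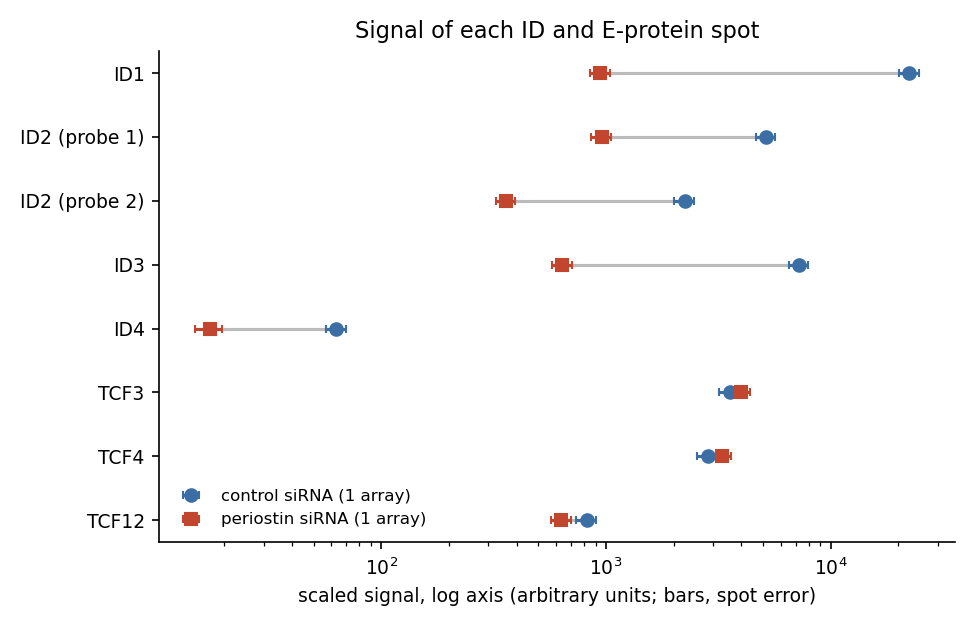
Scaled signal (horizontal, log axis) of each spot of the ID and E-protein genes with control siRNA (circles) and periostin siRNA (squares), 1 array each; bars are the error of the spot as given by the scanner software. ID1 moved from 22368 to 944, whereas TCF3 moved from 3551 to 3986.

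The E-protein genes changed little. TCF3, whose products are the E proteins best known from lymphocyte development, had a signal of 3551 ± 355 with control siRNA and 3986 ± 399 with periostin siRNA (log2 ratio 0.17 ± 0.20). TCF4 had 2835 ± 283 and 3271 ± 327 (log2 ratio 0.21 ± 0.20). TCF12, which encodes the E protein HEB, had 820 ± 82.0 and 633 ± 63.3 (log2 ratio -0.37 ± 0.20). Hence TCF3 differed by less than this software error and TCF12 by more than it, with TCF4 at the limit. That error is a nearly constant share of the signal for bright spots. Measured on probes printed 10 times, the pooled SD between spots was 0.05, 0.06 and 0.07 in the brightness classes of TCF3, TCF4 and TCF12. All 3 ratios exceeded it, but it does not cover the difference between cultures. None reached 3-fold, and all 3 lay between the 21.7 and the 61.8 percentile of the 16052 ratios. Each rests on 1 probe, so isoforms of TCF4 and TCF12 that start at other sites were not told apart.

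**Figure D2:**
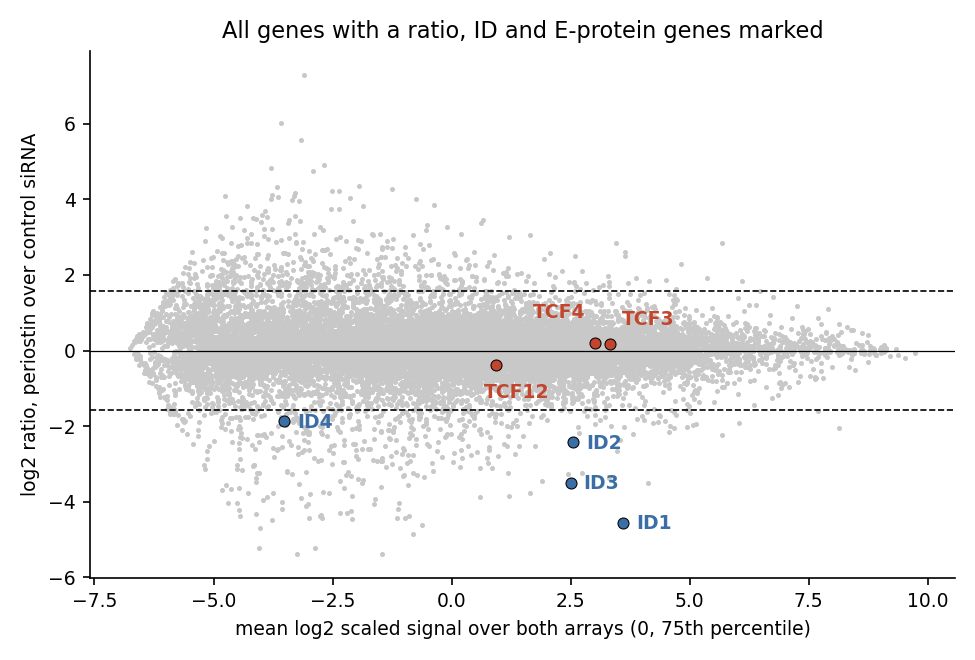
Each point is 1 of the 16052 genes with a ratio, with the mean log2 scaled signal of both arrays (horizontal, 0 at the 75th percentile) and their log2 ratio, periostin over control siRNA (vertical); dashed lines mark 3-fold. ID1 at -4.57 and ID3 at -3.49 lie below nearly all genes of like brightness, while TCF3 and TCF4 lie near 0.

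The order of the log2 ratios, from the lowest, was ID1, ID3, ID2, ID4, TCF12, TCF3 and TCF4. The gap from ID1 to ID3 was 1.07 and that from ID3 to ID2 was 1.06, each against a combined spot error of 0.29. ID2 and ID4 were 0.56 apart (error 0.32), but the size of this gap depended on the background correction. Under normexp ID4 gave -0.75 and still lay between ID2 (-2.35) and TCF12 (-0.28). The gap from ID4 to TCF12 was 1.50 (error 0.32) and that from TCF12 to TCF3 was 0.54 (error 0.29). TCF3 and TCF4, only 0.04 apart, cannot be ordered. The combined errors of these gaps again come from the software. Probes printed 10 times had a pooled SD of the log2 ratio between spots of 0.05 in the brightness class of ID1 and TCF3. It was 0.24 in that of ID4. None of these errors covers the difference between cultures.

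The abundance of ID transcripts was then set beside that of the E-protein transcripts. With control siRNA the signals were 22368 for ID1, 7224 for ID3, 5162 for ID2 and 63.2 for ID4, beside 3551 for TCF3, 2835 for TCF4 and 820 for TCF12. With periostin siRNA they were 944, 641, 957 and 17.3 for the same ID genes, beside 3986, 3271 and 633 for the E-protein genes. Probes differ in how strongly they bind and in the length of transcript they stand for, so these levels do not give the number of ID molecules per E-protein molecule. The change of each ID to E-protein signal ratio between the arrays cancels a constant difference in binding between the probes and any single scaling factor per array, but not the background correction or a scaling that varies with brightness.

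This ratio was lower with periostin siRNA for 12 of 12 pairs, by 2.83-fold to 27.3-fold (median 7.46-fold). The 12 pairs combine the log2 ratios of only 7 genes, and the ID genes were chosen because they were low. Nothing is therefore read from the count of pairs. The signal ratio was 26.6-fold lower for ID1 over TCF3, 27.3-fold for ID1 over TCF4 and 18.3-fold for ID1 over TCF12. For ID3 the ratios were 12.7-fold, 13.0-fold and 8.71-fold lower, in the same order of partners. For ID2 they were 6.05-fold, 6.22-fold and 4.16-fold lower. For ID4 they were 4.11-fold lower over TCF3, 4.22-fold over TCF4 and 2.83-fold over TCF12, of which the last was the smallest of the 12 changes. The differences of log2 ratios had combined spot errors of 0.29, or 0.32 where ID4 was one of the pair. With the normexp correction the ID4 pairs were -0.94, -0.93 and -0.47 on the log2 scale, and 9 of the 12 pairs were past 3-fold as against 11.

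**Figure D3:**
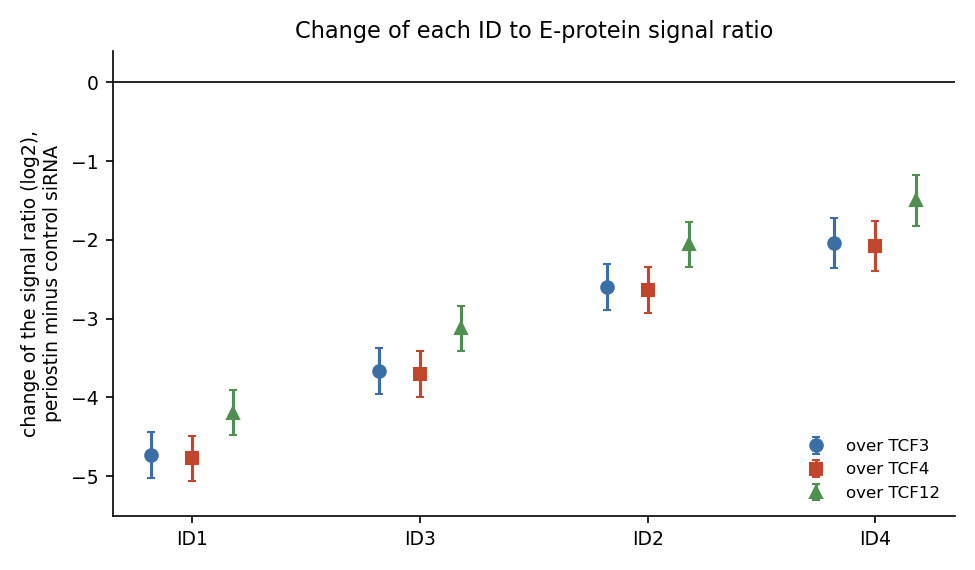
Change of the ID to E-protein signal ratio between the arrays (vertical, log2, periostin siRNA minus control siRNA) for each ID gene over TCF3 (circles), TCF4 (squares) and TCF12 (triangles); bars are the combined error of both spots. The 12 values combine the log2 ratios of 7 genes and lie below 0, from -4.77 for ID1 over TCF4 to -1.50 for ID4 over TCF12.

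With 2 arrays, likeness of pattern comes down to the ratio itself. Among 7981 genes brighter than the 75th percentile with control siRNA and well above background on both arrays, those with the log2 ratio closest to that of ID1 were H3C15 (-4.62), a replication-dependent histone gene, and the mitotic genes DLGAP5 (-4.46) and KIF2C (-4.43). H3C15 has near-identical copies that 1 probe may not tell apart. Closest to ID3 were EMP1 (-3.50), a membrane protein gene, BIRC5 (-3.45), the survivin gene of mitosis, and MMP10 (-3.57), a matrix metalloproteinase.

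The genes of the partners with which E proteins form DNA-binding dimers mostly stayed within 3-fold. Of 31 class II bHLH genes, 16 were below background on both arrays, among them the myogenic gene MYF5. The 15 with a ratio had a median log2 ratio of 0.25, beside 0.06 over all genes. That median is the value of MYOD1, a bound from a spot near background, which gave 0.03 under the normexp correction. Only ATOH8, which has itself been described as a BMP-responsive gene, was lower by more than 3-fold, beside 2.75% of all genes. It went from 822 to 233 (log2 ratio -1.82) and gave -1.50 under the normexp correction. TCF21, a regulator of lung mesenchyme, went from 2625 to 1195 (-1.14), and TWIST1 from 389 to 273 (-0.51). TWIST2 went from 2271 to 2504 (0.14) by its brightest probe, but its other probes gave -0.47 and -0.64, so its direction is unsettled.

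The HES, HEY and BHLHE genes encode bHLH repressors that act beside the ID proteins, several of them downstream of Notch. Of 12 genes 8 had a ratio, with a median of 0.11. Past 3-fold, 1 was lower and 1 higher, beside 2.75% and 3.37% over all genes. HEY1, a gene of both Notch and BMP signalling, had a signal of 29.2 with control siRNA and was not well above background with periostin siRNA (7.16), which makes it at least 3.76-fold lower, but only -0.29 on the log2 scale under the normexp correction. BHLHE41, a clock-linked repressor, went from 45.8 to 159 (log2 ratio 1.79), which was 1.06 under the normexp correction. HES4 gave -1.02, and HES6 gave 0.25 by its brightest probe and 0.67, 0.52 and 0.30 by its other probes.

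Of the listed BMP ligands with a ratio, BMP2, BMP5 and BMP6 were lower and BMP4 was higher, while the listed receptors and SMADs stayed within 3-fold. Not every BMP ligand gene was in the list. Of 23 genes 20 had a ratio, with a median of -0.08. Past 3-fold, 2 were lower and 2 higher, beside 2.75% and 3.37% over all genes. BMP2, a ligand that induces ID genes, went from 6344 to 655 (log2 ratio -3.28 ± 0.20), and BMP6 from 124 to 26.5 (-2.22 ± 0.22). BMP5 was lower within 3-fold, from 692 to 277 (-1.32 ± 0.20). BMP4, a ligand of the same branch as BMP2, went the other way, from 1103 to 3881 (1.82 ± 0.20).

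GREM1, a secreted BMP antagonist, went from 1038 to 2746 (1.40, its second probe 1.34). BAMBI, a pseudoreceptor that dampens TGF-β and BMP signalling, went from 5629 to 17511 (1.64), and it was 1.51 under median scaling. BMP2 and BMP4 were past 3-fold under all 10 settings, and BMP6 was not under the normexp correction (-1.16). The antagonists NOG, FST and CHRD gave -0.85, -0.53 and -0.15, and NOG gave -0.26 under the normexp correction.

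Among the receptors, ACVRL1 went from 17058 to 6983 (-1.29), BMPR2 from 226 to 336 (0.57), and BMPR1A and ACVR1 gave 0.03 and -0.01, signs that changed with the scaling. SMAD1 and SMAD5, which carry the BMP signal to ID genes, gave -0.29 and 0.04, of which the latter sign also changed with the scaling, and SMAD9 gave -0.60 and SMAD4 0.47. The inhibitory SMAD6, like the ID genes a target of BMP signalling, went from 884 to 1221 (0.47), and SMAD7 from 675 to 406 (-0.73). Genes named above as BMP-linked thus went both ways. SMAD6 was higher, while the 4 ID genes, ATOH8 and HEY1 were lower, HEY1 only as a bound that was -0.29 under the normexp correction. These genes are not a full set of BMP targets. The part of BMP signalling in these differences was not tested.

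Other regulators known to act on ID genes showed smaller differences. None of 4 such genes was past 3-fold, where 2.75% of all genes were lower and 3.37% higher. MYCN was below background on both arrays. ATF3, a repressor of ID1 in the response to TGF-β, went from 1772 to 1031 (-0.78), although 1 of its 4 probes gave 0.20. EGR1 went from 1117 to 909 (-0.30), and MYC, an activator of ID2, gave -0.60 ± 0.06 (SD over 10 spots).

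ID proteins are short-lived and also bind factors outside the E-protein family. Beside 2.75% of all genes, 1 of 4 genes of their turnover was lower by more than 3-fold. This was CDC20, an activator of the anaphase-promoting complex, which went from 485 to 31.8 (-3.93 ± 0.22, or -2.61 under the normexp correction) and is itself a mitotic gene. USP1, a deubiquitinase that stabilizes ID proteins, gave -0.63 ± 0.11 (SD over 10 spots), its cofactor WDR48 0.43, and FZR1 -0.10. Of 11 genes of other binding partners 9 had a ratio, with a median of -0.15. RB1 gave -0.93 ± 0.04 (SD over 10 spots), its relatives RBL1 and RBL2 gave -0.86 and 0.34, and ETS1 and ETS2 gave 0.70 and -0.15. Under the normexp correction RBL1 gave -0.47, and ETS1, a dim spot (24.7 with control siRNA), gave 0.18. PAX8 alone was higher by more than 3-fold, beside 3.37% of all genes. It went from 19.9 to 88.7 (2.16), and this was 0.91 under the normexp correction.

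Genes of CDK inhibitors, which E proteins activate and ID proteins hold down in many cells, were within 3-fold. Of all genes, only 2.75% were lower and 3.37% higher past that threshold, so nothing is read from this. CDKN2A went from 4517 to 4143 (-0.12), CDKN1A from 2625 to 2509 (-0.07) and CDKN2B from 52.6 to 49.7 (-0.08, or 0.04 with normexp). CDKN1C stood apart from these, with 1669 for control siRNA and 3467 for periostin siRNA (1.05 ± 0.20), a difference of 2.08-fold.

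**Figure D4:**
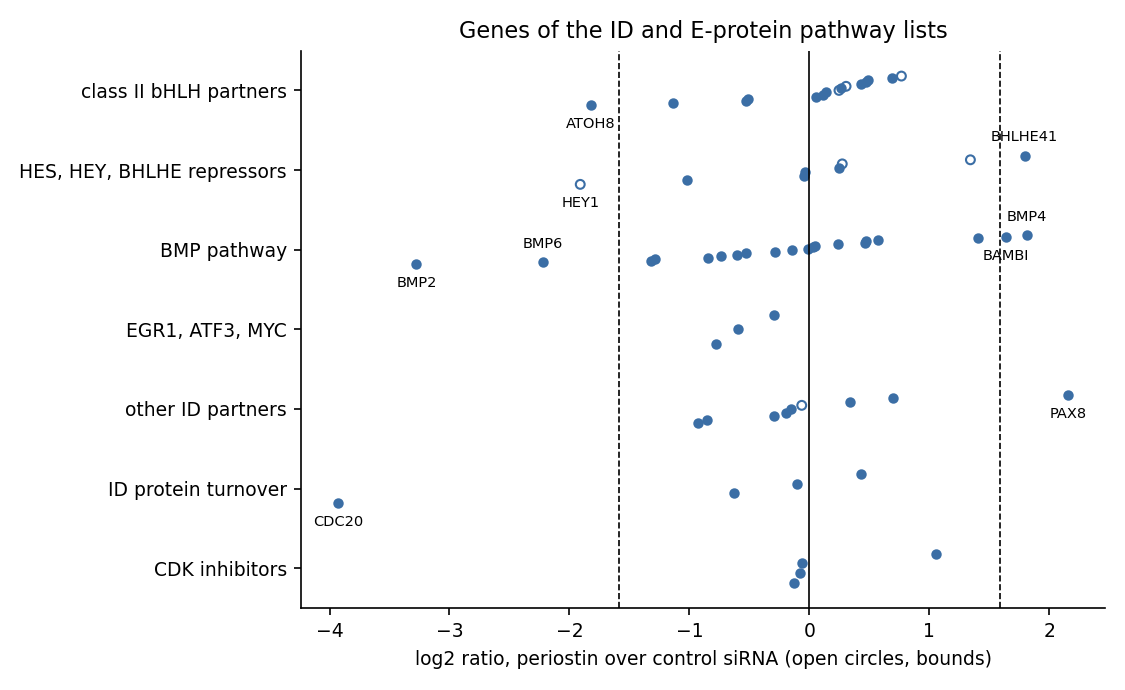
Log2 ratio, periostin over control siRNA (horizontal), of each gene with a ratio in the 7 lists around the ID and E proteins (vertical); dashed lines mark 3-fold, open circles are bounds, and genes past 3-fold are named. BMP2 (-3.28) and BMP6 (-2.22) stand to the left of the BMP genes and BMP4 (1.82) and BAMBI (1.64) to the right.

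The ratios of the ID and E-protein genes were recomputed under 9 other settings of background correction, scaling, probe choice and filter. ID1 stayed between -4.69 and -4.51, ID3 between -3.62 and -3.41 and ID2 between -2.56 and -2.35. ID4 ranged from -2.00 to -0.75. TCF3 ranged from 0.04 to 0.21, TCF4 from 0.08 to 0.25 and TCF12 from -0.50 to -0.28, so no sign changed for these 7 genes under the settings run. Settings that change only the scaling factor of an array shifted all genes alike. The filter left these 7 genes unchanged, and the choice of probe could move ID2 alone.

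**Figure D5:**
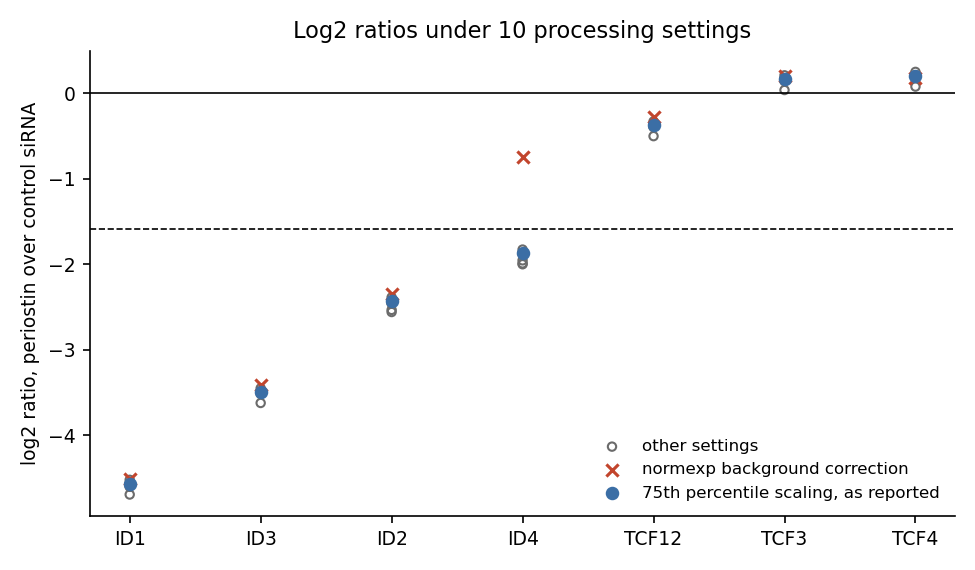
Log2 ratio, periostin over control siRNA (vertical), of each gene under 10 settings (filled circles, as reported; crosses, normexp background correction; open circles, the other 8); the dashed line marks 3-fold lower. ID4 under the normexp correction, at -0.75, is the one value of an ID gene above that line.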

How the data were processed

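Total RNA of MRC-5 cells was hybridized to SurePrint G3 arrays, and the authors deposited 1 scanner file per condition, made with Feature Extraction (version 11.5.1.1 per the file headers, 12.0.3.1 in the submitters' processing notes), holding intensity values that the software had background-subtracted and detrended, with no scaling between arrays. In the deposited table of normalized intensity, 100% of the values of probes printed once equalled the scanner value times 1 factor per array (3.65 and 3.54) within 1%, and the normalization method is not given in the sources used here. The spot flags deposited in the scanner files, which are not a measurement, marked spots well above background (58.0% and 58.9%).

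In Python 3.11.15 (numpy 2.4.6, pandas 2.3.3), processed signals were divided by the 75th percentile of their array (372 and 383) and log2-transformed, spots of a probe were averaged, and the brightest probe stood for a gene. A gene well above background on 1 array alone was given as a bound, for which its dim signal was raised to the detection limit of that array (the dimmest spot above background) where it lay under it. Accessions named 65.1% of the spots through RefSeq. Normexp, quantile and loess (span 0.3) values came from R 4.3.3 with limma 3.58.1. The scripts were tested on simulated data.

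The genes and the 7 lists were chosen with earlier results of these data known. Named were the 7 genes, list genes past 3-fold, the 2 brightest of a list with none, POSTN and the genes nearest in ratio; other list genes were named after their values were seen. In all, 1 list gene and 1 marker are not reported here and were left out of the counts.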

Additional observations from a re-analysis of the deposited data

How the results depend on the processing

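No paired analysis was possible because there was a single array per group, which also left no replicate to omit. The normexp background correction moved ID4 to -0.75 on the log2 scale and the counts over all genes to 190 lower and 143 higher by more than 3-fold, against 441 and 541. Its offset of 50 pulls ratios of dim spots towards 0 by construction. At 2-fold 1031 genes were lower and 1279 higher, at 4-fold 274 and 278, and 3 of the 7 genes (ID1, ID2 and ID3) were past 4-fold. The higher genes made up 55.1% of all calls, but 42.9% under normexp and 46.3% under median scaling, which shifted the median of all genes by -0.13. The ID minus E-protein difference of median log2 ratios, -3.13, stayed between -3.18 and -3.06 under the 9 other settings. A single scaling factor per array cancels in this difference, and the filter removed no spot of the 7 genes. Settings of those kinds therefore could not change it. The other log2 ratios of the 7 genes kept their sign and stayed within the spot error. Among the list genes named above, ACVR1, BMPR1A, SMAD5, CDKN2B and TWIST2 changed sign under at least 1 setting. ID4 is limited by its signal over background, and every value by the number of arrays.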

Other observations

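RNAs transcribed beside the ID and E-protein genes, chosen after their values were seen, were near background. ID2-AS1, the antisense RNA next to ID2, had a signal of 8.35 with control siRNA, where it was not well above background, and 12.3 with periostin siRNA. TCF12-DT, the divergent RNA at TCF12, had 16.1 with control siRNA and 9.59 with periostin siRNA, where it was not well above background.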
